A study of Bos taurus with 3 samples.

Results

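Fibroblast growth factors (FGFs) are secreted signals that bind receptor tyrosine kinases on neighbouring cells, with heparan sulphate as a cofactor. In many epithelia the mesenchyme makes FGF7 and FGF10, and the epithelium carries FGFR2, whose epithelial splice form these ligands bind. FGF2 is a broadly acting ligand held in the extracellular matrix, and FGFBP1 is a secreted carrier that binds FGFs in the matrix and makes them available to receptors. The rumen is lined by a stratified squamous epithelium in which cells leave a basal layer, pass through a spinous layer and harden towards the lumen, above a stroma of fibroblasts, vessels and immune cells.

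The genes described here are 7 of the 27270 genes counted: the ligands FGF7 (ENSBTAG00000051898), FGF10 and FGF2 (ENSBTAG00000005691), the receptors FGFR1, FGFR2 (ENSBTAG00000014064) and FGFR3, and the binding protein FGFBP1. They were taken by gene symbol, and each symbol matched a single row of the count table. The data came from rumen tissue of 3 newborn Holstein calves, sampled 1 day after birth, dissociated with trypsin and a collagenase mixture after the outer muscle had been stripped, and sequenced as 1 droplet library per calf; all 3 animals belong to 1 group, and adult animals were not analysed here. Muscle coats are therefore not represented, and the digestion sets which cells entered the suspension. Levels are unique molecular identifiers (UMIs, each a captured transcript) of a gene per 10000 UMIs of the summed cells. Because the 3′ ends of transcripts were counted, the splice forms of the receptors cannot be told apart.

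Of 26215 barcodes with 500 to 4000 detected genes, 24042 cells were kept after limits on UMIs and mitochondrial share and the removal of doublets, 4695, 9746 and 9601 from calves 1, 2 and 3. The libraries held 82263092, 89803289 and 106145091 UMIs, and 9 to 27 kept barcodes were shared between any pair of calves. Clusters were named as 21126 epithelial, 788 fibroblast (mural and smooth muscle-like cells included), 1324 endothelial and 804 immune cells, with median depths of 7634.5, 2040, 3922.5 and 4627 UMIs. The summed level of 9 fibroblast markers was 356 to 412 in fibroblasts of the calves against 2.99 to 4.27 in epithelial and 26.8 to 33.6 in endothelial cells, that of 8 endothelial markers was 58.7 to 75.4 in endothelial cells against at most 1.18 in any other class, and that of 8 immune markers was 144 to 166 in immune cells against at most 5.84. Calf 1 stood apart, with 22 fibroblasts and 10 immune cells. The 9 epithelial markers summed to 100.02 in its fibroblasts, against 9.64 in the lowest calf, so epithelial RNA was abundant in these 22 cells. Lists for lymphatic endothelium and glia reached 2.12 and 3.22 in endothelial cells, the glial list with 3 of its 4 genes at 0, and melanocyte, mast cell and erythroid lists stayed at or below 0.397 in every class.

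The kept cells held 86 UMIs of FGF7, 78 of FGF10, 1422 of FGF2, 949 of FGFR1, 29138 of FGFR2, 16999 of FGFR3 and 17520 of FGFBP1. The ligand values thus rest on few molecules, and the values of FGFR2, FGFR3 and FGFBP1 on many.

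FGF7, a mesenchymal ligand of epithelial FGFR2, was found almost entirely in the fibroblast class, and 53 of its 78 UMIs there came from a cluster led by genes of contractile cells (ACTA2, MYH11, DES). Its level in the class was 0.125 in calf 1, 0.423 in calf 2 and 0.449 in calf 3, a mean of 0.332 ± 0.180 (SD, n = 3 calves), from 1, 33 and 44 UMIs. In epithelial cells of calves 1, 2 and 3 it had 2, 1 and 2 UMIs, a mean level of 0.000280 ± 0.000123. Each calf was higher in fibroblasts and the ranges of the classes did not overlap.

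Pooled over calves, the fibroblast level of FGF7 was 1571 times the epithelial level (95% interval 645 to 4974, counting error only). Endothelial cells had 2 FGF7 UMIs in all and immune cells 1, and the levels of endothelial, immune and epithelial cells overlapped between calves. To compare shares of cells at equal depth, 2000 UMIs were drawn from each cell and shallower cells were left out, which removed 27.3%, 53.8% and 44.5% of the fibroblasts. Then 6.25%, 7.50% and 6.87% of the fibroblasts of calves 1, 2 and 3 had an FGF7 UMI. The calf 1 share rests on 1 of 16 cells (exact 95% interval 0.158 to 30.2%). Of 20611 thinned epithelial cells 1 had an FGF7 UMI, a share of 0.00485%, and the unthinned mean share of fibroblasts was 6.62% ± 1.85.

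FGF10, the second mesenchymal ligand of epithelial FGFR2, had a level of 0 in calf 1, 0.244 in calf 2 and 0.510 in calf 3 in fibroblasts, from 0, 19 and 50 UMIs. The 22 fibroblasts of calf 1 allow a level of up to 0.374, so an absence there was not detectable. Epithelial cells held 2 FGF10 UMIs in all, both in calf 3. The mean in fibroblasts was 0.251 ± 0.255 (SD, n = 3), and because of calf 1 its range overlapped that of every other class.

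The pooled fibroblast level of FGF10 was 3475 times the epithelial level (95% interval 926 to 29263, counting error only). Thinned fibroblasts with an FGF10 UMI made up 0 of 16 cells in calf 1, which allows up to 18.8%, 5.63% in calf 2 and 7.73% in calf 3, against 1 of 20611 epithelial cells. Endothelial cells had 6 UMIs and immune cells 1.

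FGF2, the broadly acting matrix-bound ligand, was highest in fibroblasts in every calf. Its level there was 0.873, 0.821 and 1.19 in calves 1, 2 and 3, a mean of 0.962 ± 0.201 (SD, n = 3). Endothelial cells followed with 0.139, 0.0699 and 0.297, and epithelial cells with 0.0315, 0.0712 and 0.0691. The fibroblast range lay above the endothelial range, while endothelial, epithelial and immune ranges overlapped. Of the thinned fibroblasts, 12.5%, 10.6% and 20.2% had an FGF2 UMI, with an unthinned mean of 20.0% ± 3.38, against a thinned share of 1.39% over all epithelial cells.

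FGFR1, the receptor typical of mesenchymal cells, had its highest levels in the stroma, although 743 of its 949 UMIs came from the more numerous epithelial cells. Endothelial cells of calves 1, 2 and 3 had levels of 0.279, 0.160 and 0.314, a mean of 0.251 ± 0.0806 (SD, n = 3). Fibroblasts had 0, 0.244 and 0.265, where the 0 of calf 1 allows up to 0.374. The fibroblast and endothelial ranges overlapped. Epithelial cells lay between 0.0357 and 0.0511, below every endothelial value, and immune cells had 3 FGFR1 UMIs in all, a level of 0.00830 in calf 3, while the 0 of calves 1 and 2 allows up to 0.598 and 0.0795. After thinning, 5.88%, 2.65% and 6.14% of endothelial cells had an FGFR1 UMI, against 0.898% of all epithelial cells. Without thinning the endothelial mean was 9.94% ± 3.64.

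FGFR2, the receptor for FGF7 and FGF10, was an epithelial transcript. Epithelial levels were 1.17, 1.05 and 2.36 in calves 1, 2 and 3, a mean of 1.53 ± 0.722 (SD, n = 3). Calf 3 stood above the other two by far more than the counting error (95% interval 2.32 to 2.39 in calf 3 and 1.03 to 1.08 in calf 2). Fibroblasts had 0.748, 0.141 and 0.184, endothelial cells 0.0279, 0.0535 and 0.0778, and immune cells 0, 0.132 and 0.105. Every epithelial value was above every value of the other classes, and immune and endothelial ranges overlapped.

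An FGFR2 UMI was found in 21.4%, 20.7% and 38.1% of thinned epithelial cells, and in 64.8% ± 15.1 of them without thinning. The thinned share was 1.38% of endothelial and 1.29% of immune cells.

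FGFR3, a receptor of epithelia and cartilage, showed the same class and another order of the calves. Its epithelial level was 0.954, 1.11 and 0.692 in calves 1, 2 and 3, a mean of 0.918 ± 0.210 (SD, n = 3), with the lowest value in calf 3, the calf with the highest FGFR2. Fibroblasts had 0.624, 0.167 and 0.0408, and no endothelial or immune value exceeded 0.199. The epithelial range lay above the others, and the ranges of fibroblast, immune and endothelial cells overlapped. Thinned epithelial cells with an FGFR3 UMI were 19.1%, 20.5% and 13.1%, and the unthinned mean was 52.4% ± 9.22.

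FGFBP1, the FGF carrier, had epithelial levels of 0.832, 0.710 and 1.25 in calves 1, 2 and 3, a mean of 0.930 ± 0.281 (SD, n = 3). Fibroblasts had 0.374, 0.0385 and 0.102, and no endothelial or immune value exceeded 0.199. Again the epithelial range did not overlap the others, while the other classes overlapped among themselves. Shares of thinned epithelial cells were 10.2%, 6.97% and 12.7%, with an unthinned mean of 24.1% ± 6.77.

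**Figure D1:**
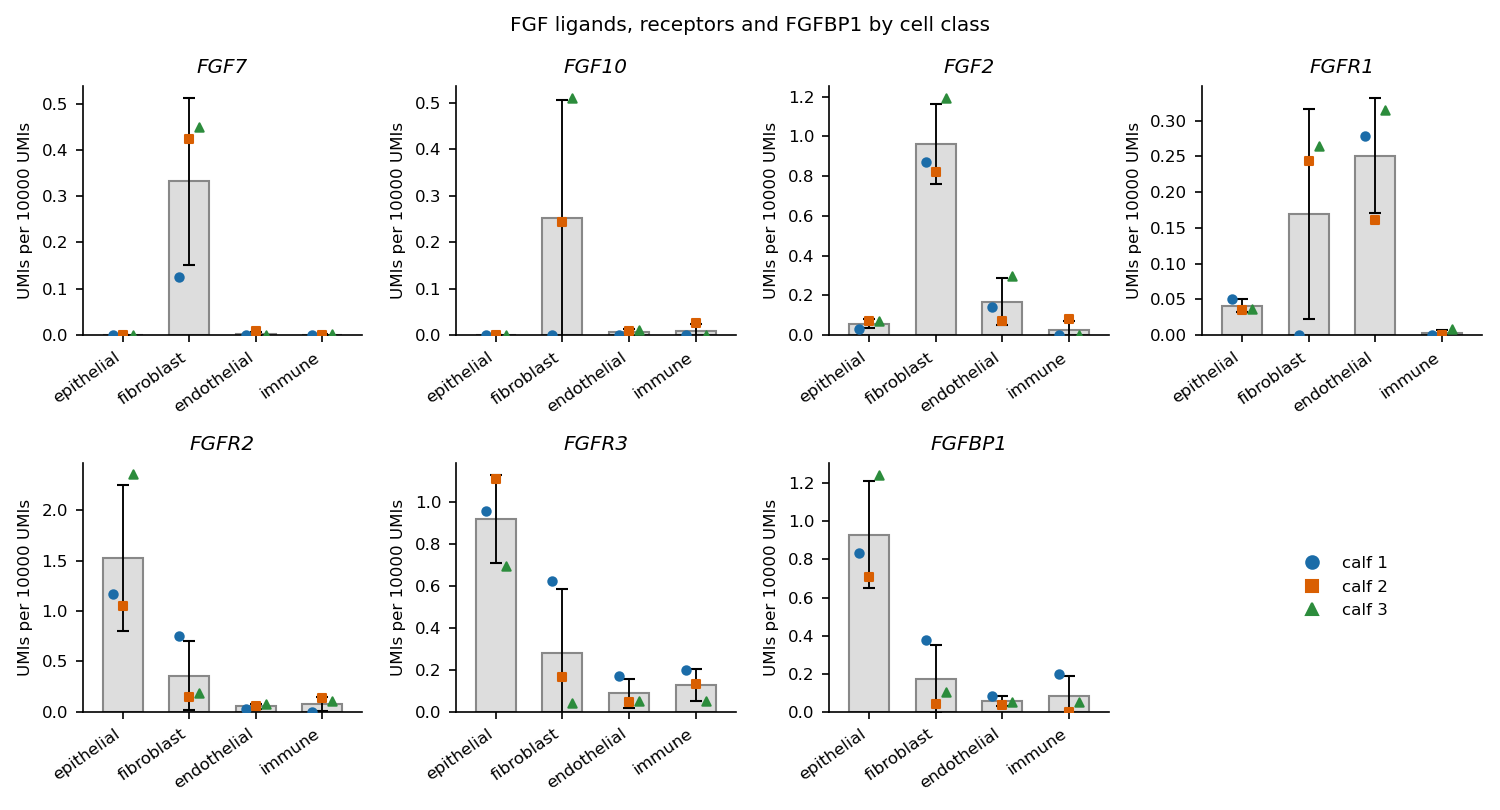
Levels of the 7 genes (UMIs per 10000 UMIs, a separate axis for each gene) in 4 cell classes. Bars are means over 3 calves, error bars are the SD cut off at 0, and points are single calves; FGF7, FGF10 and FGF2 stand in fibroblasts, FGFR1 in fibroblasts and endothelial cells, and FGFR2 (1.05 to 2.36), FGFR3 and FGFBP1 in epithelial cells.

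The small amounts of FGFR2, FGFR3 and FGFBP1 outside the epithelium were set beside the epithelial genes KRT5, KRT15 and COL17A1, which stromal and immune cells should lack. In endothelial cells, pooled levels were 4.18% of the epithelial level for FGFR2, 5.95% for FGFR3 and 4.75% for FGFBP1, and 4.21%, 4.22% and 3.25% for KRT5, KRT15 and COL17A1. In immune cells the receptors and FGFBP1 were at 5.25 to 6.79% and the 3 reference genes at 3.42 to 4.27%. In fibroblasts the members were at 9.23 to 13.1% and the reference genes at 8.04 to 9.95%.

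Calf 1 fibroblasts held 64.2% of the epithelial level of FGFR2, 65.3% of FGFR3 and 45.0% of FGFBP1, and likewise 60.2% of KRT5, 48.0% of KRT15 and 54.3% of COL17A1. In calves 2 and 3 the fibroblast values of the members ranged from 5.42 to 15.0%. Within each calf, the counting interval of FGFR2 and of FGFBP1 held the percentage of KRT5 in all 3 classes. FGFR3 did so as well except in calf 3, where it was at 7.08% in endothelial cells against 3.53% for KRT5 and at 7.19% in immune cells against 3.86%. COL17A1 was not always held. In calf 3 fibroblasts it was at 3.45%, below the intervals of FGFR2 (at 7.79%) and FGFBP1 (at 8.18%). In calf 3 immune cells it was at 3.12%, below the interval of FGFR2 (at 4.46%). What part of the low levels outside the epithelium is carried-over epithelial RNA was not tested.

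**Figure D2:**
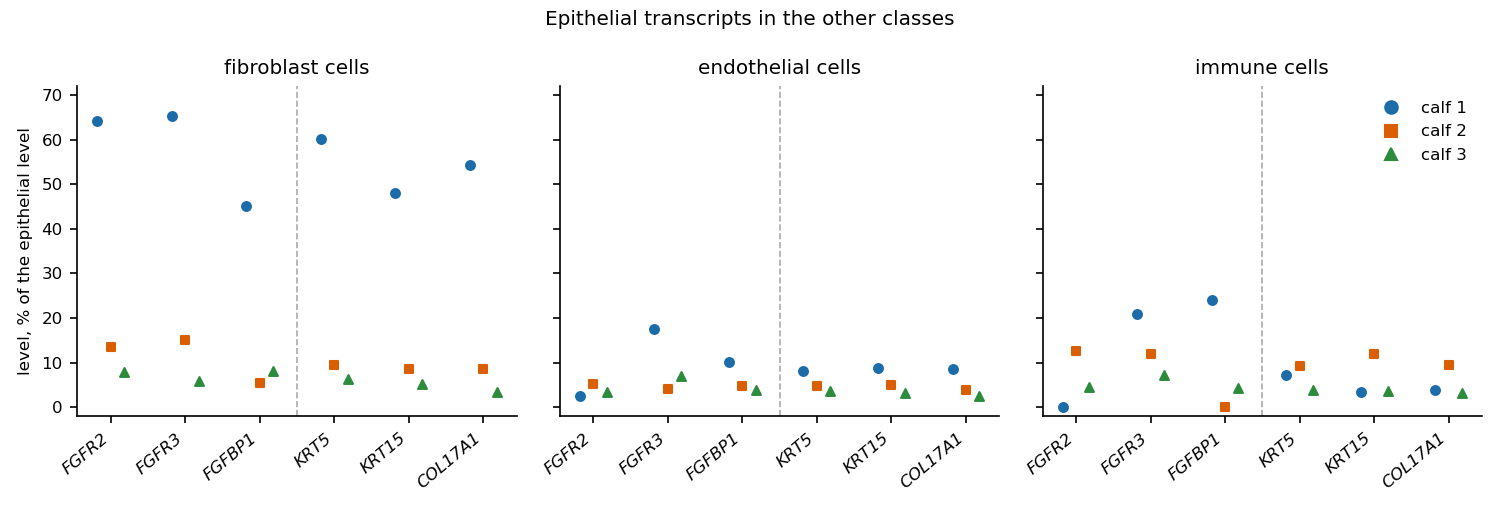
Level in fibroblast, endothelial and immune cells as a percentage of the same calf's epithelial level, for FGFR2, FGFR3 and FGFBP1 (left of the dashed line) and the epithelial genes KRT5, KRT15 and COL17A1 (right). Points are calves; in fibroblasts calf 1 lies at 45.0 to 65.3% for all 6 genes and calves 2 and 3 at or below 15.0%.

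Differences between classes were then tested on UMI sums per calf by the quasi-likelihood test of edgeR, with calf as a block and Benjamini-Hochberg adjustment over all genes that passed the filter on low counts. The classes were formed without FGF family and pathway genes, but from other genes of the same cells, so a call describes how steady a difference was over the 3 calves. Such calls were common: 38.4% of 10211 genes were called between fibroblasts and epithelial cells, 19.4% higher in fibroblasts and 19.0% higher in epithelial cells. FGF10 failed the filter, and FGF7 passed it through the fibroblast sums alone, so it had to differ and is not counted. Of the other 5 members all were called, 2 higher in fibroblasts and 3 higher in epithelial cells. Of the 2, FGFR1 passed the filter through fibroblast and endothelial sums, its epithelial levels being too low to pass. FGF2, the other, reached the limit of the filter in epithelial sums of calves 2 and 3 only, too few to pass alone. The filter thus favoured a higher level of both genes in the stroma than in epithelial cells. Calls of FGFR1 or FGF2 as higher in the stroma than in epithelial cells are therefore descriptions.

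In fibroblasts, FGF2 was higher by 3.53 ± 0.47 (SE) on the log2 scale (adjusted p = 4.99e-05, higher in 3 of 3 calves). FGFR1 was higher there by 2.17 ± 0.40 (2 of 3 calves). The filter favoured both differences. For FGF7 and FGF10, with at most 2 UMIs in each epithelial sum, the pooled ratios above stand in place of a fitted difference. FGFBP1 was lower in fibroblasts in 3 of 3 calves, with a log2 difference of -3.81 ± 0.40 (adjusted p = 5.37e-08). The log2 differences of FGFR2 and FGFR3 were -3.34 ± 0.37 (adjusted p = 2.58e-07) and -3.13 ± 0.41 (adjusted p = 3.61e-06), again in 3 of 3 calves.

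Between endothelial and epithelial cells 47.1% of the genes tested were called (24.4% higher in endothelial and 22.8% higher in epithelial cells), and 4 of 6 members. FGFR1 was higher in endothelial cells by 2.23 ± 0.34 log2 (3 of 3 calves). It is among the 4, but the filter favoured this difference as well. FGFR2, FGFR3 and FGFBP1 were lower there in 3 of 3 calves, with log2 differences of -4.99 ± 0.36, -4.20 ± 0.37 and -4.75 ± 0.35. FGF2 did not pass, with a log2 difference of 1.07 ± 0.48 (adjusted p = 0.0845, higher in 2 of 3 calves), and without calf 2 it was 1.77 (adjusted p = 0.000426). FGF7, which is among the 6 here although it passed the filter through fibroblast sums alone, did not pass either (adjusted p = 0.110).

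Between immune and epithelial cells 48.2% of the genes were called (22.8% higher in immune and 25.4% higher in epithelial cells), and 5 of 6 members, all lower in immune cells. FGFR2, FGFR3 and FGFBP1 differed by -4.29 ± 0.41, -3.66 ± 0.43 and -4.72 ± 0.43 on the log2 scale in 3 of 3 calves. FGFR1 differed by -2.75 ± 0.78 (adjusted p = 0.00588) and FGF2 by -3.06 ± 1.02 (adjusted p = 0.0250), FGF2 being lower in 2 of 3 calves. The immune sums of the 3 calves held 0, 0 and 3 UMIs of FGFR1 and 0, 3 and 1 of FGF2, and without calf 3, which gave 724 of the 804 immune cells, neither was called (adjusted p = 0.197 and 0.953). FGF2 was also not called without calf 1 (adjusted p = 0.0797) or without the replicate block (adjusted p = 0.0635). FGF7, which is again among the 6, was not called (adjusted p = 0.281).

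Within the stroma 26.7% of the genes were called between fibroblasts and endothelial cells (13.5% higher in fibroblasts and 13.3% higher in endothelial cells), and 2 of 5 members, both higher in fibroblasts, with FGF7 (33 and 44 UMIs in fibroblasts of calves 2 and 3, 2 in all endothelial cells) not counted for the reason above. These were FGF2 (2.46 ± 0.51 log2, adjusted p = 0.00224) and FGFR2 (1.65 ± 0.48, adjusted p = 0.0118). KRT5 was also higher in fibroblasts, at a pooled level of 4.58 against 1.94, and its part in the FGFR2 difference was not tested. FGFR1 had a log2 difference of -0.06 ± 0.40 (adjusted p = 0.947), and FGFR3 (adjusted p = 0.183) and FGFBP1 (adjusted p = 0.259) did not pass.

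**Figure D3:**
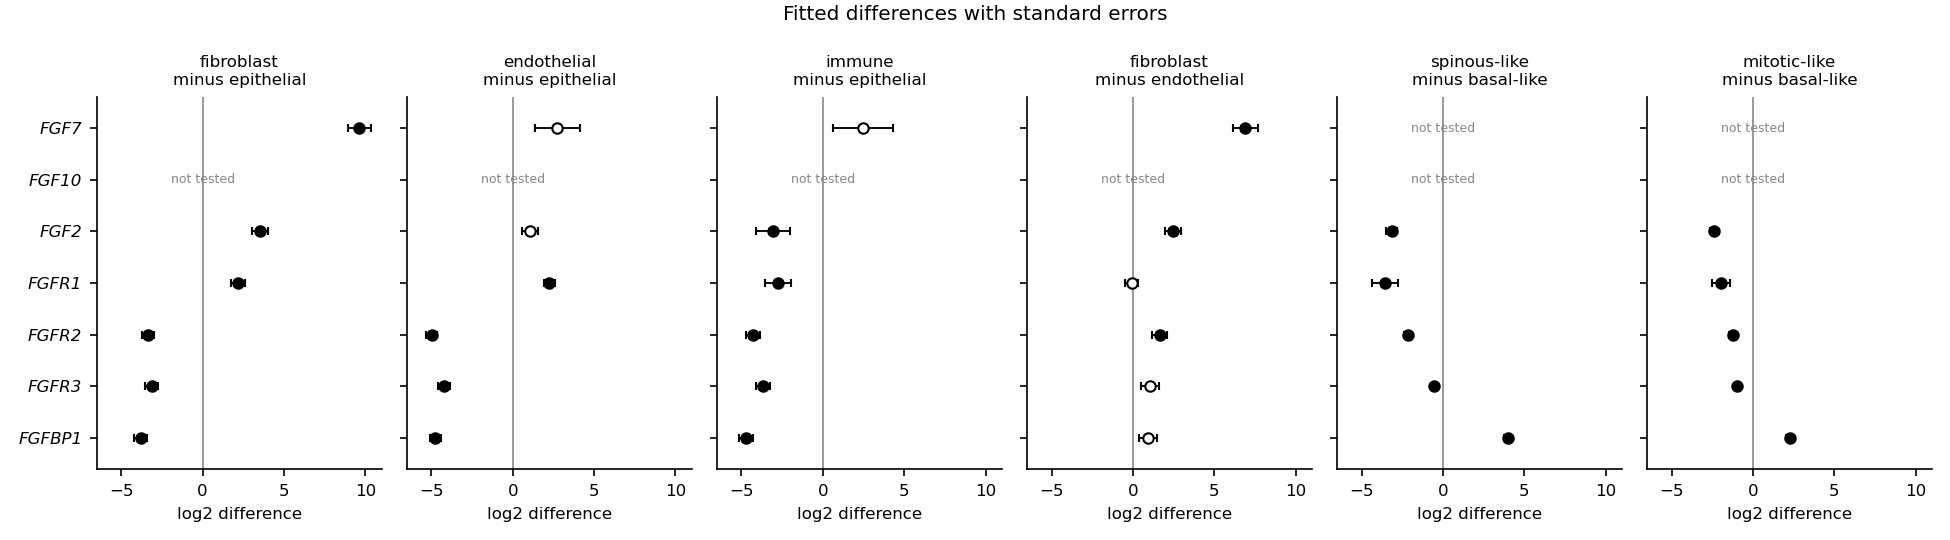
Fitted log2 differences of the members in 6 comparisons, the first group minus the second. Points are estimates from edgeR and bars their standard errors; filled points have an adjusted p under 0.05, open points do not, and genes that failed the low-count filter are marked as not tested. FGF7 entered the class fits through its fibroblast sums, so its filled points had to differ. FGFR1 entered them through fibroblast and endothelial sums, which favoured its filled points in the comparisons of these classes with epithelial cells. Epithelial sums alone would not have passed FGF2 either, which favoured its filled point between fibroblasts and epithelial cells. In the layer fits the filter favoured the filled points of FGF2 and FGFR1 in the spinous-like comparison and of FGFR1 in the mitotic-like comparison. Between fibroblasts and epithelial cells FGF7, FGF2 and FGFR1 lie to the fibroblast side and FGFR2, FGFR3 and FGFBP1 to the epithelial side, and FGFBP1 alone of the tested members lies to the right in the spinous-like and mitotic-like comparisons.

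All but a few cells of the fibroblast class fell into 3 clusters, each holding cells of all 3 calves. The cluster led by LUM, CXCL14 and APOD had 338 cells, the cluster led by TPM2, ACTA2 and MYH11, genes of contractile cells, had 313, and the cluster led by MFAP5, DLK1 and SAA3 had 135. Because calf 1 gave 9, 6 and 7 cells to them, levels were pooled over calves, with intervals for counting error only.

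FGF7 was highest in the ACTA2 cluster at 0.606 (95% interval 0.454 to 0.792), followed by the MFAP5 cluster at 0.430 (0.241 to 0.709), and was lowest in the LUM cluster at 0.163 (0.0780 to 0.299). The intervals of the ACTA2 and LUM clusters did not overlap, and in calves 2 and 3 the ACTA2 cluster was higher, at 0.598 and 0.646 against 0.0680 and 0.266. Between the MFAP5 cluster and the others the intervals overlapped.

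FGF10 had another distribution, with 0.455 (0.303 to 0.658) in the LUM cluster, 0.434 (0.307 to 0.596) in the ACTA2 cluster and 0.0860 (0.0177 to 0.251) in the MFAP5 cluster. The LUM and ACTA2 clusters did not differ beyond counting error, and the MFAP5 value rests on 3 UMIs. Of the 788 fibroblasts, 60 had an FGF7 UMI, 57 an FGF10 UMI and 1 had both.

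FGF2 was highest in the LUM cluster at 1.71 (1.40 to 2.07), then in the MFAP5 cluster at 0.946 (0.651 to 1.33) and the ACTA2 cluster at 0.549 (0.405 to 0.727). In calves 2 and 3 the LUM cluster had 1.36 and 1.99 and the ACTA2 cluster 0.427 and 0.646, so the order of these clusters was the same in both. FGFR1 was 0.293 in the LUM, 0.149 in the ACTA2 and 0.401 in the MFAP5 cluster, with overlapping intervals.

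The endothelial class held 972 cells of a cluster led by PLVAP and VWF and 351 of a cluster led by CLDN5, with BMX and SOX17, genes of arterial vessels, among its leading genes. Pooled FGF2 was 0.0750 (0.0522 to 0.104) in the PLVAP cluster and 0.566 (0.455 to 0.696) in the CLDN5 cluster. By calf, the CLDN5 cluster had 0.141, 0.159 and 0.759 and the PLVAP cluster 0.139, 0.0502 and 0.0879. The excess was therefore large in calf 3, which gave 82 of the 90 UMIs, and in calf 1 the clusters were alike with 1 and 4 UMIs. FGFR1 was 0.197 (0.159 to 0.242) in the PLVAP cluster and 0.415 (0.321 to 0.528) in the CLDN5 cluster. It was higher in the CLDN5 cluster in calf 2, 0.205 against 0.151, and in calf 3, 0.519 against 0.222. In calf 1 it was 0.141 in the CLDN5 cluster, from 1 UMI in 18 cells, against 0.314.

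**Figure D4:**
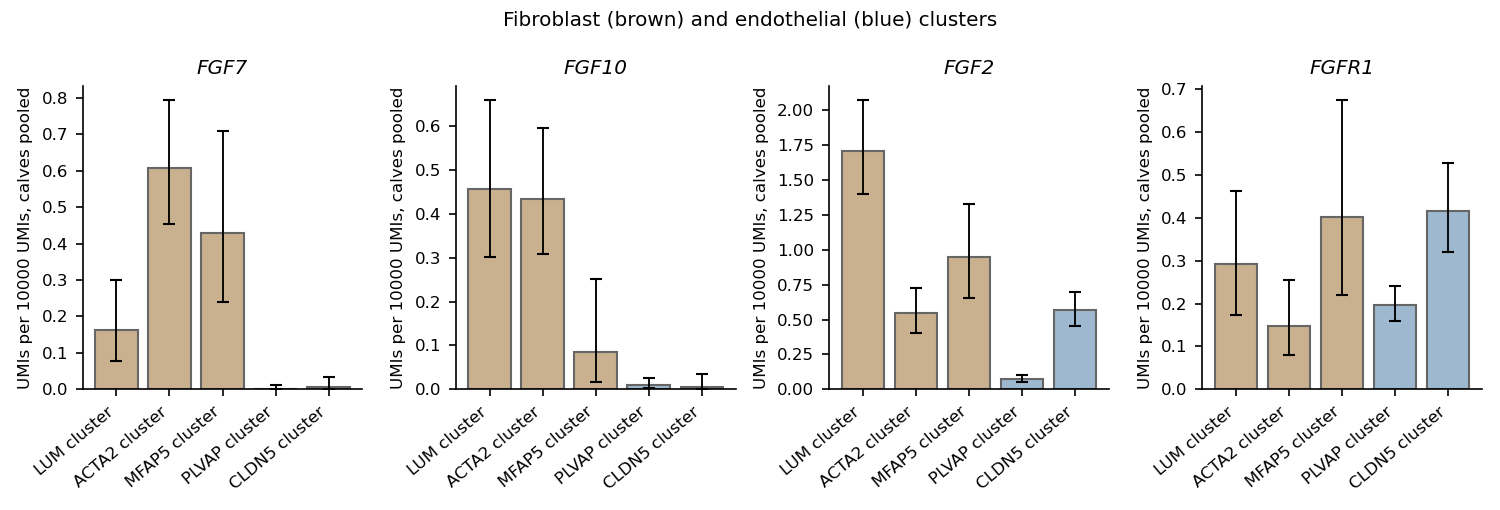
Pooled levels (UMIs per 10000 UMIs) of the ligands and FGFR1 in 3 fibroblast clusters (brown) and both endothelial clusters (blue), with 95% Poisson intervals that cover counting error only. FGF7 peaks in the ACTA2 cluster at 0.606, FGF2 in the LUM cluster at 1.71, and FGF10 is shared by the LUM and ACTA2 clusters.

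Epithelial cells were sorted into 6 basal-like clusters (14353 cells), an S-phase cluster (2208), a mitotic-like cluster (1192), a spinous-like cluster (908) and 3 clusters left unnamed (2467). The spinous-like cluster was led by SPINK5, KRTDAP and A2ML1 and expressed 7 of 7 measured spinous markers and 7 of 8 granule markers. No separate granule-like cluster was found, and that comparison was not run.

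FGFBP1 rose from the basal-like to the spinous-like cells in every calf. Basal-like levels were 0.211, 0.176 and 0.487 in calves 1, 2 and 3, and spinous-like levels 3.27, 3.56 and 4.52. The lowest spinous-like value was several times the highest basal-like value. S-phase cells had 1.28, 1.55 and 2.84 and mitotic-like cells 0.907, 1.64 and 2.21, so cycling cells lay between the layers without overlapping either. Of the thinned cells, 4.06%, 2.72% and 6.79% of the basal-like and 43.4%, 42.9% and 38.0% of the spinous-like cells had an FGFBP1 UMI.

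FGFR2 ran the other way. Basal-like levels were 1.60, 1.34 and 2.78 and spinous-like levels 0.236, 0.183 and 0.960. Each calf fell, and the ranges did not overlap, although the spinous-like value of calf 3 was above the mitotic-like value of calf 1. S-phase cells had 0.808, 0.507 and 1.48, and mitotic-like cells 0.927, 0.541 and 1.43, and their ranges overlapped.

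FGFR3 fell less. Basal-like levels were 1.17, 1.23 and 0.730, spinous-like levels 0.650, 0.666 and 0.552, and mitotic-like levels 0.682, 0.681 and 0.427. Each calf was lower in both, and the spinous-like range lay just below the basal-like range. S-phase cells had 0.870, 0.943 and 0.672, overlapping the basal-like range. Spinous-like cells had a median depth of 10801 UMIs against 6841 in basal-like cells. A lower level thus need not mean fewer UMIs per cell. FGFR3 had 237, 324 and 127 UMIs in the 262, 429 and 217 spinous-like cells of calves 1, 2 and 3. The 2344, 6629 and 5380 basal-like cells had 2414, 5338 and 2990. Per cell these counts were close, lower in spinous-like cells of calves 1 and 2 and higher in calf 3. Differences per cell were not tested.

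FGF2 and FGFR1 were low in the epithelium and were found mainly in basal-like cells. FGF2 had 0.0543, 0.0950 and 0.0975 in basal-like cells and 0.00274, 0.0123 and 0.00869 in spinous-like cells, the latter from 1, 6 and 2 UMIs. FGFR1 had 0.0718, 0.0505 and 0.0501 in basal-like cells and 0.00549, 0 and 0.0130 in spinous-like cells, from 2, 0 and 3 UMIs. FGF7 and FGF10 were at 0 to 0.00205 in every epithelial group of every calf. The basal-like and spinous-like ranges of FGF2 and FGFR1 did not overlap.

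Between spinous-like and basal-like cells 44.3% of 11237 genes tested were called (22.5% higher in spinous-like and 21.8% higher in basal-like cells), and all 5 members tested; FGF7 and FGF10 failed the filter. FGFBP1 was higher in spinous-like cells by 3.99 ± 0.24 on the log2 scale (adjusted p = 7.11e-07 by the same edgeR fit, 3 of 3 calves). FGFR2 was lower, with a log2 difference of -2.18 ± 0.23 (adjusted p = 3.07e-05), FGF2 with -3.15 ± 0.33 (adjusted p = 1.38e-05), FGFR1 with -3.54 ± 0.80 (adjusted p = 0.00420) and FGFR3 with -0.57 ± 0.11 (adjusted p = 0.00149), each in 3 of 3 calves. FGF2 and FGFR1 had spinous-like levels too low to pass the filter by themselves. The filter thus favoured a lower level there, and these calls of FGF2 and FGFR1 are descriptions. The fit without the replicate block lost FGFR3 (adjusted p = 0.181). The FGFR3 call is on levels, and its counts per cell were close in these groups, as given above.

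Between mitotic-like and basal-like cells 41.5% of the genes were called (21.1% higher in mitotic-like and 20.4% higher in basal-like cells), and again all 5 members tested. FGFBP1 was higher in mitotic-like cells by 2.27 ± 0.23 log2 (adjusted p = 2.86e-05), and FGFR2 (-1.23 ± 0.21, adjusted p = 0.000984), FGFR3 (-1.01 ± 0.11, adjusted p = 2.95e-05), FGF2 (-2.40 ± 0.25, adjusted p = 2.25e-05) and FGFR1 (-1.99 ± 0.54, adjusted p = 0.0131) were lower, each in 3 of 3 calves. Without the replicate block FGFR2 (adjusted p = 0.153) and FGFR1 (adjusted p = 0.166) were not called, without calf 3 FGFR1 was not (adjusted p = 0.0797), and without Harmony FGFBP1 was not (adjusted p = 0.0942). FGFR1 had mitotic-like levels too low to pass the filter by themselves, so its call is a description. The median depth of mitotic-like cells was 13655.5 UMIs against 6841 in basal-like cells, and the levels are per 10000 UMIs. A lower level in mitotic-like cells thus need not mean fewer UMIs per cell. FGFR3 had 591, 156 and 218 UMIs in the 621, 187 and 384 mitotic-like cells of calves 1, 2 and 3. The 2344, 6629 and 5380 basal-like cells had 2414, 5338 and 2990. Per cell these counts were close in each calf, while those of FGFR2 were lower in mitotic-like cells in each calf. Differences per cell were not tested.

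**Figure D5:**
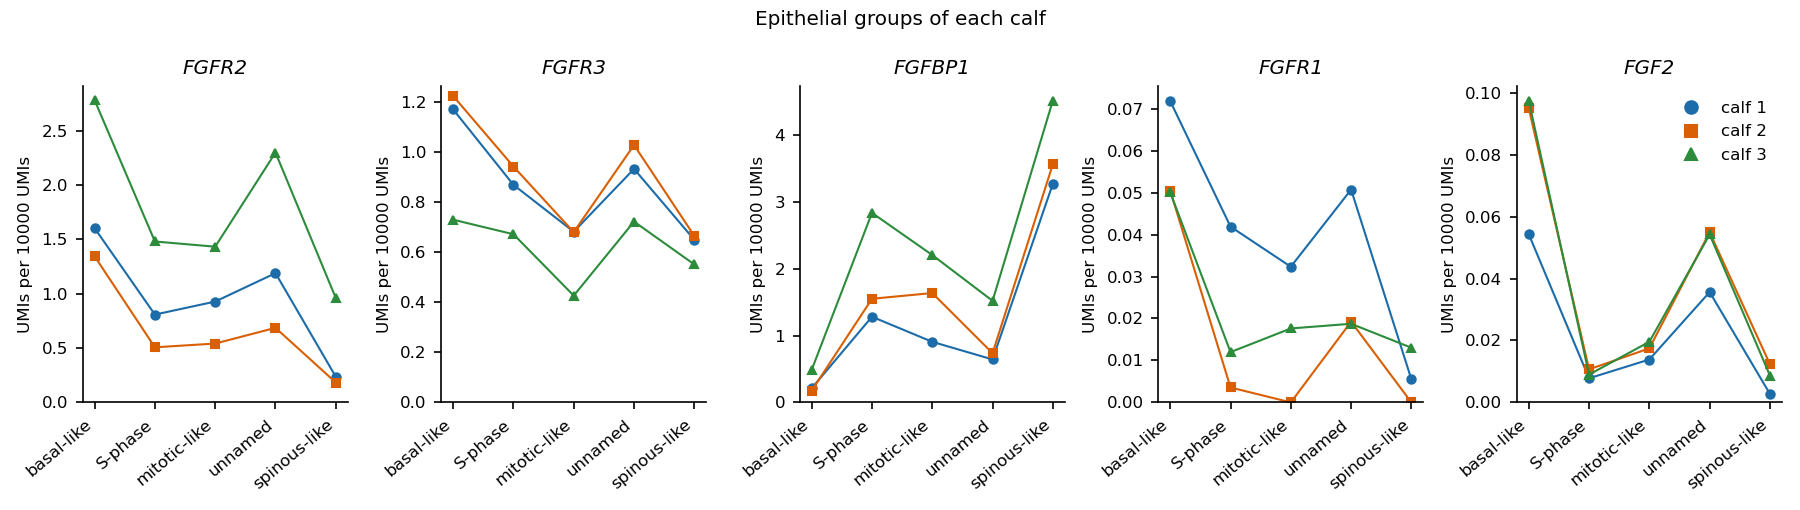
Levels (UMIs per 10000 UMIs, a separate axis for each gene) in 5 epithelial groups, one line per calf. FGFR2, FGFR3, FGFR1 and FGF2 are highest in basal-like cells of each calf, FGFBP1 reaches 3.27 to 4.52 in spinous-like cells, and calf 3 has the highest FGFR2 and the lowest FGFR3 in all 5 groups.

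Calf 3 had the highest FGFR2, the highest FGFBP1 and the lowest FGFR3 in each of the 5 epithelial groups. With 1 library per calf and all calves in 1 group, animal and library cannot be told apart, and no test between calves was made.

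The 6 basal-like clusters differed from each other. FGFBP1 was lowest in the cluster led by RGS4, PLAC8 and PARM1 (0.0379, 0.0428 and 0.105 in calves 1, 2 and 3) and in the cluster led by KRT8, PLAC8 and RGS4 (0.0559, 0.119 and 0.192). These clusters, with levels of 0.0835, 0.159 and 0.120 and of 0.0894, 0.155 and 0.163, were among those with the most FGF2. The cluster led by IL1R2 and LY6D had little FGF2, at 0.0181, 0.0406 and 0.0253. The range of that cluster did not overlap the ranges of the other two.

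FGFR2 reached 2.64, 1.41 and 3.88 in the basal-like cluster led by mitochondrial genes, whose median depth was 3338 UMIs. In calf 2 it was higher, at 1.69, in the cluster led by RGS4, PLAC8 and PARM1. The cluster led by mitochondrial genes was then left out of the basal-like group, a choice made after seeing the data. This gave a spinous-like minus basal-like log2 difference of -2.16 for FGFR2 and called all 5 members in both layer comparisons.

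An unnamed cluster led by ADM, IL1R2 and CRYAB, with CLDN4 among its leading genes, had FGFBP1 levels of 0.995, 0.775 and 2.11. In each calf this was above the basal-like and below the spinous-like value.

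Cells with both receptors were slightly more frequent in each calf than the separate shares give. In thinned epithelial cells of calves 1, 2 and 3, 4.74%, 4.54% and 5.13% had UMIs of FGFR2 and FGFR3, against products of the single shares of 4.10%, 4.25% and 4.97%. FGFBP1 was found in 6.39%, 3.44% and 9.04% of cells with an FGFR2 UMI and in 11.2%, 7.90% and 14.9% of cells without one. The share was lower in FGFR2-positive cells in each calf; these are cells of 1 library each, not replicates, and no test was made.

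Among 11483 genes with at least 200 UMIs, those with the pattern most like a member over 51 sums of cluster and calf were found by Pearson's r of log2(level + 0.1). For FGFR3 they were KRT15 (r = 0.97), COL17A1 (0.95) and ARHGEF16 (0.95), for FGFR2 LAMA3 (0.94), ACSL3 (0.92) and DIPK1C (0.91), and for FGFBP1 SHMT1 (0.90), LGALS4 (0.88) and MAL2 (0.88). For FGF2 they were FSTL1 (0.89), THY1 (0.89) and PLAC9 (0.88), and for FGFR1 TGFBR3 (0.93), IGF2 (0.91) and PXDN (0.91). KRT15 and COL17A1 are basal keratinocyte genes and THY1 a fibroblast surface gene. The sums share 3 libraries and their depth, and the values are descriptions. FGF7 and FGF10 had too few UMIs for this.

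Of 71 other genes of the FGF pathway listed, 68 were in the table and 34 were tested between fibroblasts and epithelial cells. Of these 13 were higher in fibroblasts, 4 were higher in epithelial cells and 17 did not pass, so 50.0% were called where 38.4% of all genes were. Their median log2 difference was 0.59 and that of all genes -0.05. Among the 13, FGF1, SDC3, GPC4, SULF2, SPRY2 and ETV1 had epithelial levels too low to pass the filter, which favoured their calls. DUSP5, among the 4, was too low in both classes. The adjusted p-values given below for such genes are descriptions. All genes went through the same filter. The list was chosen with earlier results of these data known.

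Of the other ligands 1 of 18 measured could be tested. FGF1, which binds all FGF receptors, had levels of 0.499, 0.192 and 0.204 in fibroblasts of calves 1, 2 and 3 and 1 UMI in all epithelial cells, so it passed the filter through fibroblasts alone. Pooled, its fibroblast level was 3928 times the epithelial one (95% interval 665 to 159065, counting error only).

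Among heparan sulphate carriers and binding proteins 4 of 8 tested were higher in fibroblasts and 2 in epithelial cells. SDC3 had 0.249, 0.321 and 0.316 in fibroblasts against 0.0174, 0.0146 and 0.0164 in epithelial cells (log2 difference 3.87 ± 0.40, adjusted p = 5.43e-08). SDC2 (2.75 ± 0.30, adjusted p = 8.53e-08) and GPC4 (2.05 ± 0.49, adjusted p = 0.00224) were also higher in fibroblasts, and SDC1, the syndecan of epithelia, was lower (-1.35 ± 0.34, adjusted p = 0.00252; without calf 2, adjusted p = 0.263). Of 7 heparan sulphate enzymes 2 were higher in fibroblasts, the sulphatase SULF2 (2.76 ± 0.62, adjusted p = 0.00112) and the chain polymerase EXT2 (0.72 ± 0.26, adjusted p = 0.0340), and none tested was lower. FGFR4, FGFRL1, KL and KLB all failed the filter.

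Of 8 adaptors 3 were higher in fibroblasts by this fit, the phosphatase PTPN11 (1.00 ± 0.23, adjusted p = 0.00117), GAB1 (0.81 ± 0.27, adjusted p = 0.0207) and SHC1 (0.77 ± 0.24, adjusted p = 0.0141). These 3 genes and EXT2 were not called without calf 2 (adjusted p = 0.0666 to 0.528) or without calf 3 (adjusted p = 0.0712 to 0.226). Of 10 feedback inhibitors and response genes 3 were higher and 2 lower in fibroblasts. SPRY2, an inhibitor induced by receptor signalling, had 0.249, 0.462 and 0.938 in fibroblasts against 0.00793, 0.0283 and 0.0288 in epithelial cells (4.17 ± 0.35, adjusted p = 2.09e-09). ETV1, a transcription factor of the pathway, was 0, 0.192 and 0.296 against 0.00316 to 0.00575 (5.22 ± 0.58, adjusted p = 1.60e-07). FLRT3 was lower in fibroblasts (-1.81 ± 0.45, adjusted p = 0.00241; without the replicate block, adjusted p = 0.0602). DUSP5, the other gene counted as lower, had 0 UMIs in fibroblasts, but that depth allows up to 0.0163, above the epithelial level of 0.0141, so its difference was not detectable by counts.

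Between spinous-like and basal-like cells 38 pathway genes were tested, of which 6 were higher in spinous-like cells, 16 were higher in basal-like cells and 16 did not pass. The called share was 57.9% where it was 44.3% of all genes. Of all genes 22.5% were higher in spinous-like and 21.8% higher in basal-like cells. The median log2 difference of the pathway genes was -0.42 against -0.03 for all genes. Among the genes named below, ETV5, SPRED2, SPRY2, GPC4, FGF18, FGF14 and FGF9 had spinous-like levels too low to pass the filter by themselves. This favoured calls of a lower spinous-like level. The counts include these genes, and their adjusted p-values are descriptions. All genes went through the same filter. Of 10 feedback inhibitors and response genes 7 were lower in spinous-like cells and 1 was higher, and the 7 became 3 without calf 2 or without the replicate block. One of the 7 was EGR1. The largest basal-like cluster (4875 of 14353 cells) was led by immediate-early genes such as ATF3, FOS, FOSB, EGR1 and KLF4, which tissue handling can induce. FOS was at 6.57, 8.34 and 9.60 in basal-like and 3.86, 0.479 and 2.01 in spinous-like cells of calves 1, 2 and 3. Without this cluster, a choice made after seeing the data, 6 of the 10 were lower and 1 was higher, and all 5 tested members stayed called. The part of these genes in the rest was not tested. ETV5 (-2.19 ± 0.70, adjusted p = 0.0221), SPRED2 (-2.06 ± 0.56, adjusted p = 0.0105), FLRT3 (-1.96 ± 0.29, adjusted p = 0.000173) and SPRY2 (-1.95 ± 0.69, adjusted p = 0.0359) had the largest differences. Without calf 2, ETV5, SPRED2 and SPRY2 were not called (adjusted p = 0.0624 to 0.334), nor were they without the replicate block (adjusted p = 0.112 to 0.207), and FLRT3 stayed called in both. SPRED2 was also not called without calf 1 (adjusted p = 0.0901). SPRY2 levels were 0.0112, 0.0397 and 0.0364 in basal-like and 0, 0.00822 and 0.0130 in spinous-like cells.

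Among ligands the basal-like cells had more FGF18 (0.0791, 0.0606 and 0.0139 against 0.00274, 0.00822 and 0.00434, adjusted p = 0.0116, 0.0736 without calf 1 and 0.118 without calf 2) and more FGF14, an intracellular member of the family (log2 difference -2.14 ± 0.50, adjusted p = 0.00486). FGF9 was at 0.0141, 0.0119 and 0.0127 in basal-like cells and had 0 UMIs in spinous-like cells, so it passed the filter through basal-like cells alone. This makes its pooled basal-like level at least 4.56-fold higher against a floor of 3 UMIs over the group.

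Among carriers SDC1 was higher in spinous-like cells, at 0.831, 0.916 and 0.421 against 0.300, 0.289 and 0.179 (1.65 ± 0.16, adjusted p = 1.01e-05). GPC4 (-2.31 ± 0.64, adjusted p = 0.0103), SDC2 (-1.98 ± 0.26, adjusted p = 7.85e-05) and AGRN (-1.71 ± 0.29, adjusted p = 0.000884) were lower. EXT1, a heparan sulphate polymerase, was lower (-1.46 ± 0.29, adjusted p = 0.00162), as was HS6ST1 (-0.63 ± 0.17, adjusted p = 0.00857). Of 8 adaptors 3 were higher, SHC1 (0.72 ± 0.19, adjusted p = 0.00747), GAB1 (0.66 ± 0.15, adjusted p = 0.00327) and GRB2 (0.42 ± 0.14, adjusted p = 0.0308), and none tested was lower. Without calf 2, GPC4, SHC1 and GRB2 were not called (adjusted p = 0.0730 to 0.366), and without the replicate block GPC4, HS6ST1, GAB1 and GRB2 were not (adjusted p = 0.0821 to 0.145). HS6ST1 was not called without calf 1 (adjusted p = 0.0889), nor GRB2 without calf 3 (adjusted p = 0.0977).

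In the other comparisons the same list gave 16 higher and 6 lower of 34 in endothelial against epithelial cells, a called share of 64.7% where it was 47.1% of all genes. In immune against epithelial cells 7 were higher and 12 lower, 55.9% against 48.2% of all genes, and in fibroblasts against endothelial cells 10 were higher and 8 lower, 52.9% against 26.7%. In mitotic-like against basal-like cells 15 of 38 were lower and 0 were higher, a called share of 39.5%, near the 41.5% of all genes, of which 20.4% were higher in basal-like and 21.1% higher in mitotic-like cells.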

How the data were processed

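Single-cell libraries were made with a droplet 3′ kit (version 3 chemistry) from rumen of 3 newborn calves. The authors deposited UMI counts per gene and barcode from Cell Ranger 3.1.0, aligned to the ARS-UCD1.2 cattle genome, neither normalized nor filtered on genes per barcode. The annotation release is not given in the sources used here.

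Barcodes were kept with 500 to 4000 genes, no more than 50000 UMIs and a mitochondrial share up to 40%, and doublets, scored against simulated ones, were removed (3.91%, 8.52% and 8.39% of calves 1, 2 and 3). The 2000 most variable genes without FGF family and pathway genes were reduced, merged over calves by an implementation of Harmony, and clustered with leidenalg 0.10.2 (30 dimensions, resolution 0.1). Non-immune cells were clustered again (50 dimensions, resolution 0.8). Clusters were named from marker lists. A cluster was left unnamed when another list had more markers among its top 10 genes, with the spinous and granule lists counted together for this, which was decided after seeing the data. Members and lists were chosen with earlier results of these data known.

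UMI counts were summed per calf and class or layer (at least 10 cells) and tested with edgeR 4.0.16 (R 4.3.3; TMM, filterByExpr, robust quasi-likelihood, 2-sided, calf as a block, since same-numbered sums come from 1 animal). DESeq2 1.42.0 and the other settings of the closing section were alternatives. The fit was tested on simulated data. All 7 members were named in every comparison; of the pathway genes, up to 4 per role group with an adjusted p under 0.05 and the largest difference, in 2 comparisons; and the 3 genes most like each member with at least 200 UMIs. Shares of cells come from 1 random thinning. Intervals are 95% exact Poisson or Clopper-Pearson and, like the floor of 3 UMIs for a count of 0, cover counting error only. Protein and promoter sequences were not used here.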

Additional observations from a re-analysis of the deposited data

Results flagged for a closer look

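Barcodes with more than 4000 genes, 1621 in the 3 libraries, entered no comparison, and 5 of the 7 genes exceeded in them the limit that a count of 0 allows. Pooled levels were 0.0294 UMIs per 10000 for FGF2, 0.0268 for FGFR1, 1.11 for FGFR2, 0.707 for FGFR3 and 2.17 for FGFBP1. FGFBP1 had 1.59, 2.20 and 2.98 in these barcodes of calves 1, 2 and 3, against 0.832, 0.710 and 1.25 in kept epithelial cells, so it was higher in all 3 calves. FGFR2 had 0.874, 0.801 and 1.55, below the kept epithelial cells in each calf. FGF7 had 0 UMIs and FGF10 2 in these barcodes.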

How the results depend on the processing

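Over all settings tried, no member's log2 difference that passed the test changed its sign. Between fibroblasts and epithelial cells all 64 values of the members from other settings kept their call; FGF7 failed the filter without calf 3 and with a mitochondrial share up to 20%, which left 5 members called, and FGF10 passed it without calf 1, which made 7. There, counts of called genes were 2045 to 4222 when a calf was left out. When a calf was left out, called genes ranged from 2790 to 4956 for endothelial against epithelial, 2267 to 5397 for immune against epithelial, 1505 to 2954 for fibroblast against endothelial, and 2561 to 3814 for mitotic-like against basal-like cells, each time lowest without calf 3; members called in the immune comparison ranged from 3 to 5. Without the replicate block called genes fell to 2519 for spinous-like and 1910 for mitotic-like against basal-like cells, with 3 members called in the latter, and without Harmony the mitotic-like comparison called 2755. The block follows from the design, in which the sums of a calf share an animal. DESeq2's Wald test called FGF7 higher in endothelial (log2 3.45, adjusted p = 0.0197) and immune cells (4.22, adjusted p = 0.00392) than in epithelial cells, from 2 and 1 UMIs there, and did not call FGF2 in immune cells (-1.57, adjusted p = 0.200). Without doublet removal FGFBP1 was called between fibroblasts and endothelial cells (1.02, adjusted p = 0.0225). DESeq2's size factors shifted the median of all genes by 0.10 log2 between fibroblasts and epithelial cells. Over all named genes, 732 values from other settings kept their call, 52 lost it and 4 gained it, and the causes were not tested. Shares of cells follow depth by construction: thinned to 1000 UMIs they were 2.48% for FGF7 in fibroblasts, 1.90% for FGFR1 in endothelial cells, and 15.1%, 9.41% and 6.03% for FGFR2, FGFR3 and FGFBP1 in epithelial cells, and without thinning 20.0% for FGF2 in fibroblasts, 9.94% for FGFR1, and 64.8%, 52.4% and 24.1% for the same 3. The values of FGF7 and FGF10 are limited by 86 and 78 UMIs, and by calf 1, whose 22 fibroblasts hold epithelial RNA.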
